A study of Homo sapiens with 32 samples.

Results

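MCF10A is an immortalised, non-tumorigenic human mammary epithelial cell line of basal character. The comparison described here sets MCF10A cells with an edited JUNB gene after 72 h of TGFβ1 against the same cells in solvent, and asks how much of the transcriptional response to TGFβ1 these cells still mount. It rests on 8 of the 32 RNA-seq libraries of the series, chosen by their labels: 4 libraries after TGFβ1 and 4 solvent libraries, matched by cell clone and replication. The edited cells, labelled as JUNB knock-out and called mut here, are 2 clones (numbers 1 and 65), each grown from a single cell after a CRISPR/Cas9 deletion within JUNB, with 2 replications a clone. By the study's account the wild-type JUNB protein is gone while a smaller polypeptide remains at a low level. TGFβ1 was given at 5 ng/ml, and the solvent was dilute albumin in saline. The labels give the solvent libraries time 0, whereas the study describes solvent kept on for as long as the longest treatment and a harvest of all plates at the same time after seeding. All libraries, controls included, came from cells fed with horse serum, EGF, hydrocortisone, cholera toxin and insulin. The other groups used below are mut cells after 6 and 24 h of TGFβ1 and unedited WT clones (numbers 27 and 2) in solvent and after 72 h, with 4 libraries each. Library totals ran from 42131447 to 54438689 counts over the 8 libraries, so that 3 counts correspond to 0.0551 to 0.0712 CPM. Levels are in CPM, the counts-per-million of a library's total over genes. The p-values measure the spread between libraries within a group, pooled over all 8 groups of the series, WT groups included. The replications of a clone share that clone.

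TGFβ1 binds a pair of serine/threonine kinase receptors, which phosphorylate SMAD2 and SMAD3. These join SMAD4 in the nucleus and act on genes together with other transcription factors, among them AP-1, the family of JUN and FOS dimers to which JUNB belongs. In epithelial cells prolonged exposure is known for epithelial-mesenchymal transition (EMT), in which cell junctions and epithelial identity are given up and matrix, integrins and a contractile cytoskeleton are built. In bulk RNA, fewer cells of a type and less RNA per cell cannot be told apart.

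The marker genes of mammary basal epithelium matched the labelled cell type. All 9 were tested, and their summed level was 15500 to 16700 CPM in the solvent libraries and 19000 to 22700 CPM after 72 h. The 7 luminal markers tested summed to 432 to 567 CPM in solvent and 360 to 415 CPM after 72 h. Of these EPCAM, FOXA1, GATA3 and KRT18 fell, GATA3 and KRT18 not under TMM scaling, which is explained below. KRT18 (203, 169, 229 and 191 CPM in solvent) and its partner KRT8 (199, 145, 217 and 152 CPM) held most of the level, while KRT19 did not exceed 0.315 CPM in any of the 8 libraries and ESR1 stayed at or below 0.402 CPM. The fibroblast markers that could be tested (4 of 7) summed to 15.2 to 24.9 CPM in solvent and 43.0 to 53.2 CPM after 72 h, in which COL1A1 and DCN, themselves matrix genes, made up nearly the whole level while PDGFRA and PDGFRB reached at most 0.581 CPM. Their part in the changes below was not tested. The blood and endothelial lists had 2 tested members each, and of these CD14 (-1.47, adjusted p = 4.79e-06) and KDR (-0.49, adjusted p = 0.0375) were lower after 72 h on the log2 scale. KDR was not called under TMM or without solvent 1-2, and PTPRC and CD3E, which define white blood cells, did not pass the filter on low counts.

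The targeted gene comes first. JUNB (chromosome 19, 12791486 to 12793315, plus strand, GRCh38) was at 69.2, 77.5, 128 and 172 CPM in the solvent libraries and at 123, 234, 228 and 359 CPM after 72 h, where the 4 values throughout are clone 1 replications 1 and 2 and then clone 65 replications 1 and 2. The transcript was therefore still made, and because the deletion leaves a transcript these counts do not check the genotype labels. JUNB rose on the log2 scale by 1.08 ± 0.33 (SE, adjusted p = 0.0169) and was higher in all 4 clone and replication pairs, although the groups overlapped, since solvent clone 65 lay within the range of treated clone 1. The exact two-sided permutation test of the 4 against 4 libraries, which ignores the pairs, gave p = 0.0857, where 0.0286 is the smallest value it can give. An exact test of sign flips over the 4 pairs gave p = 0.125, the smallest value it can give. In the limma-voom fit with clone and replication as a block the change was 1.08 with adjusted p = 7.62e-06. Without the solvent library 1-2 the change was 0.93 with adjusted p = 0.0582, and it likewise missed the threshold without solvent 1-1 (0.88, adjusted p = 0.0755) or without 72 h 65-2 (0.84, adjusted p = 0.0766). HOOK2, which spans JUNB on the other strand and cannot be told apart in reads without strand, lay between 12.4 and 31.1 CPM in the mut libraries.

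Of the 18 AP-1 genes tested, 3 rose (16.7%) and 4 fell (22.2%), against 7.81% and 16.3% of all genes tested. Under TMM scaling 4 rose (22.2%) and 2 fell (11.1%), against 10.7% and 9.91% of all genes tested. The median change was -0.08 against -0.09 over all genes. JUN, the founding AP-1 subunit, stood at 77.8, 71.9, 72.95 and 92.03 CPM in solvent and 173, 262, 152 and 178 CPM after 72 h (1.26 ± 0.16, adjusted p = 1e-06). No treated library came down to a solvent library for JUN. FOSL1, a FOS relative tied to motile cells, rose by 0.39 ± 0.13 (adjusted p = 0.023, lost without solvent 1-1 or 65-1 or 72 h 1-2, with adjusted p up to 0.111). A call given as lost without some libraries ended when any 1 of them was left out. FOSL2 fell by 0.60 (adjusted p = 0.00118). FOS fell by 0.49 (adjusted p = 0.0202, lost without solvent 1-1 or 72 h 65-2, with adjusted p up to 0.0675) and JUND by 0.25 (adjusted p = 0.0263, lost without solvent 1-1 or 65-1 or 72 h 1-1, 1-2 or 65-1, with adjusted p up to 0.0822), and with TMM scaling neither was called (adjusted p = 0.0507 and 0.142). ATF3, a stress-induced partner of JUN, ranged from 2.27 to 6.96 CPM in solvent and from 0.712 to 5.18 CPM after 72 h and was called only when each clone and replication was compared with its own solvent library (adjusted p = 0.0649, and 0.00489 with the pairing).

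Across the transcriptome 14865 genes were tested by limma-voom, and 3584 passed an adjusted p of 0.05. With counts scaled to library totals, 1161 (7.81%) rose and 2423 (16.3%) fell. With TMM scaling, which assumes that most genes do not change, 1596 (10.7%) rose and 1473 (9.91%) fell, so that fallen genes outnumbered risen ones with the former scaling and not with the latter. TMM moved the median log2 change of all genes from -0.09 to -0.01. Comparing each clone and replication with its own solvent library (called the pairing below) raised the counts to 1635 (11%) rising and 3401 (22.9%) falling. All 4 treated libraries lay above all 4 solvent libraries in 1185 genes (7.97%) and below them in 2358 (15.9%). Changes past 2-fold were called in 343 rising and 452 falling genes, and past 4-fold in 112 and 145.

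The solvent library 1-2 stood apart from the other solvent libraries for many of the genes that changed. It was the highest of the 4 for all 9 of the strongly risen genes named next, for 533 of the 1161 risen genes (45.9%) and for 27.3% of all genes tested. It was the lowest of the 4 for 835 of the 2423 fallen genes (34.5%) and for 26.8% of all genes tested. Its part in the response was not tested, but the comparison can be made without it. Then 1100 genes (7.34% of 14990) rose and 2140 (14.3%) fell, and 3027 of the 3584 calls remained in the same direction. Of the treated libraries, 72 h 65-2 was the highest for 34.4% of all genes tested and the lowest for 31.2%. Without 72 h 65-2, 2906 of the 3584 calls remained in the same direction.

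Among genes with no overlap and at least 10 CPM in the higher group, 9 of the 10 that rose most are described here, namely POSTN, KANK4, KCNJ15, ALOX5AP, LBH, FBLN5, FN1, SCG5 and PMEPA1. POSTN, which encodes periostin, a matrix protein of healing and fibrotic tissue, was at 0.466, 87.5, 2.51 and 1.41 CPM in solvent and at 323, 377, 450 and 537 CPM after 72 h. Solvent 1-2 thus held far more POSTN than any other solvent library, yet less than any treated one. The fitted change was 6.96 ± 1.21 on the log2 scale (adjusted p = 8.63e-05). It was 8.44 without solvent 1-2 (adjusted p = 0.00205) and 6.02 without solvent 1-1.

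KCNJ15, an inwardly rectifying potassium channel, moved from 0.931, 12.3, 1.24 and 0.724 CPM to 38.6, 48.3, 36.1 and 36.9 CPM (4.52 ± 0.62, adjusted p = 3.75e-06, and 5.39 without solvent 1-2). FBLN5, an elastic fibre protein, moved from 8.70, 18.7, 17.3 and 13.9 CPM to 206, 208, 245 and 295 CPM (4.07 ± 0.52, adjusted p = 1.5e-06). Solvent 1-2 was the highest control for both, and for KCNJ15 by a wide margin.

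FN1, the matrix glycoprotein fibronectin, reached 7766, 9096, 5529 and 3988 CPM from 249, 1413, 373 and 272 CPM. Among its 4 treated libraries clone 65 replication 2 was the lowest. PMEPA1, a membrane protein that sequesters SMADs, moved from 66.1, 137, 71.4 and 73.4 CPM to 639, 836, 551 and 754 CPM, and of the 9 it had the smallest standard error (3.05 ± 0.25). The remaining genes were low in solvent. KANK4, a cortical actin regulator, had no count in solvent 1-1 and 3.44 CPM in solvent 1-2, against 11.6, 16.2, 7.98 and 10.7 CPM after treatment. ALOX5AP, the 5-lipoxygenase activating protein, rose 20.4-fold, LBH, a transcription cofactor of limb, heart and mammary basal cells, 18.1-fold, and SCG5, a chaperone of prohormone convertase 2, 10.5-fold (adjusted p = 3.76e-07, 2.19e-06 and 0.00194). Leaving out solvent 1-2 took the log2 change of LBH from 4.18 to 4.80, that of SCG5 from 3.39 to 4.18 and that of KANK4 from 6.14 to 7.53, and without solvent 1-1 KANK4 was at 4.83.

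**Figure D1:**
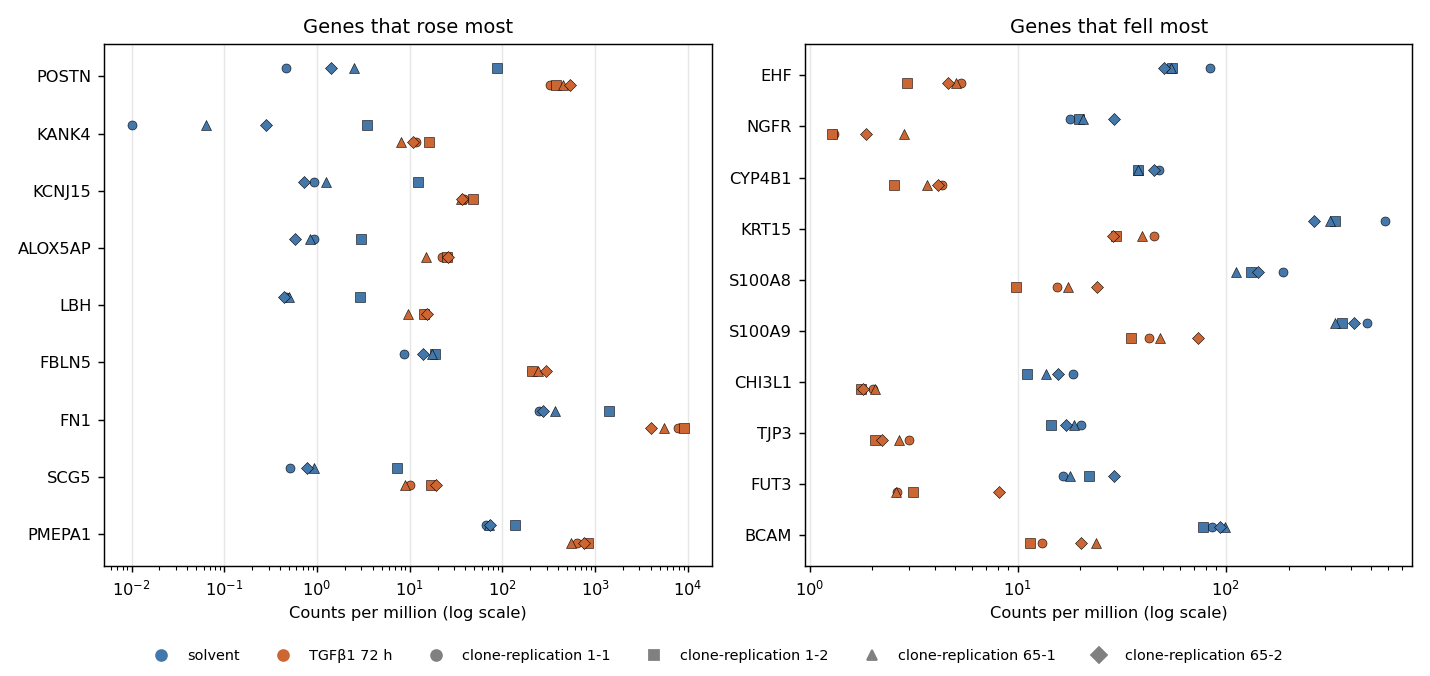
Counts-per-million on a log scale for 9 of the 10 largest rises (left) and the 10 largest falls (right), with a point for each of the 4 solvent (blue) and 4 TGFβ1 72 h (orange) libraries and a marker shape for each clone and replication (KANK4 in solvent 1-1, with no count, is drawn at 0.01). The square of solvent 1-2 is the rightmost blue point in all 9 rows of the left panel, and the colours do not overlap in any row.

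Since the edited gene encodes an AP-1 subunit, the promoters of risen genes were searched for the AP-1 element TGANTCA, which reads the same on both strands, in the 250 bases before each gene start of the RefSeq table (build GRCh38.p14). All 9 genes named above had an entry, of which POSTN and KCNJ15 held it, and so did IL11, a further risen gene described below. The 3 windows are shown 5′ to 3′ on the gene's strand with the element in capitals: POSTN at chr13:37598769-37599018 (minus strand, element starting 220 bases before the start), KCNJ15 at chr21:38272258-38272507 (plus strand, 35 bases) and IL11 at chr19:55370464-55370713 (minus strand, 96 bases).
POSTN: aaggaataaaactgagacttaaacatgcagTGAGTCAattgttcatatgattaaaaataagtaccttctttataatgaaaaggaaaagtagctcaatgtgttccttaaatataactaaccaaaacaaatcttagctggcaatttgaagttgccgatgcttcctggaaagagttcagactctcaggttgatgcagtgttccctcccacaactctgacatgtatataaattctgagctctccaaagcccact
KCNJ15: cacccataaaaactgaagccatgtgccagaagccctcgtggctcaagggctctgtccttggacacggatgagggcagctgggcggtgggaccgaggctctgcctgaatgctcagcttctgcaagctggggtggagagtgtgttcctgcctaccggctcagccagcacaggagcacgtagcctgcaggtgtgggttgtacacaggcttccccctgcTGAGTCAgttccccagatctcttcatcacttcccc
IL11: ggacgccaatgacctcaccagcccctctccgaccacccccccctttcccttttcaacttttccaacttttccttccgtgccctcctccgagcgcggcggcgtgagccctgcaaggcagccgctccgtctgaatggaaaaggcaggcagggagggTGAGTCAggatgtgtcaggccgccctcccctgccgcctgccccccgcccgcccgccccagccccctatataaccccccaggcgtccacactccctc
The element occurred in 110 of 1510 windows of risen genes (7.28%), 141 of 2843 of fallen genes (4.96%), 839 of 17038 of all genes tested (4.92%) and 6.57% of all windows in the table. A match is a string of letters and does not show that AP-1 binds there.

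The 10 genes that fell most were EHF, NGFR, CYP4B1, KRT15, S100A8, S100A9, CHI3L1, TJP3, FUT3 and BCAM. EHF, an ETS factor of epithelial differentiation, stood at 83.4, 54.8, 54.6 and 50.6 CPM in solvent and 5.35, 2.94, 5.06 and 4.63 CPM after 72 h (-3.78 ± 0.66, adjusted p = 9.99e-05). NGFR, the p75 neurotrophin receptor that marks basal epithelial cells, moved from 17.9, 19.6, 20.7 and 28.9 CPM to 1.31, 1.29, 2.85 and 1.86 CPM (-3.67 ± 0.36, adjusted p = 2.75e-08), with its antisense gene NGFR-AS1 not told apart in reads without strand. KRT15, a keratin of basal progenitor cells, stood at 580, 335, 317 and 266 CPM and then 44.9, 29.8, 39.6 and 28.8 CPM, a 10.2-fold fall. Here clone 1 replication 1 was highest in both conditions.

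S100A8 and S100A9, the subunits of calprotectin, moved together: S100A8 from 188, 131, 111 and 143 CPM to 15.5, 9.85, 17.5 and 23.98 CPM and S100A9 from 477, 361, 336 and 411 CPM to 42.7, 34.9, 48.4 and 73.6 CPM (-3.04 ± 0.50, adjusted p = 4.74e-05). CYP4B1, a fatty acid hydroxylase, fell 11.7-fold, TJP3, the junction scaffold ZO-3, 7.07-fold, FUT3, the Lewis fucosyltransferase, 5.81-fold and CHI3L1, a chitinase-like secreted protein, 7.56-fold (adjusted p = 1.38e-06, 4.65e-06, 0.000538 and 4.15e-05). BCAM, a laminin receptor of the basal surface, was at 85.8, 77.6, 99.04 and 94 CPM in solvent and 13.1, 11.5, 23.8 and 20.03 CPM after 72 h (-2.47 ± 0.17, adjusted p = 2.61e-10). Solvent 1-2 was the highest solvent library for none of these 10 genes and the lowest for 3.

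**Figure D2:**
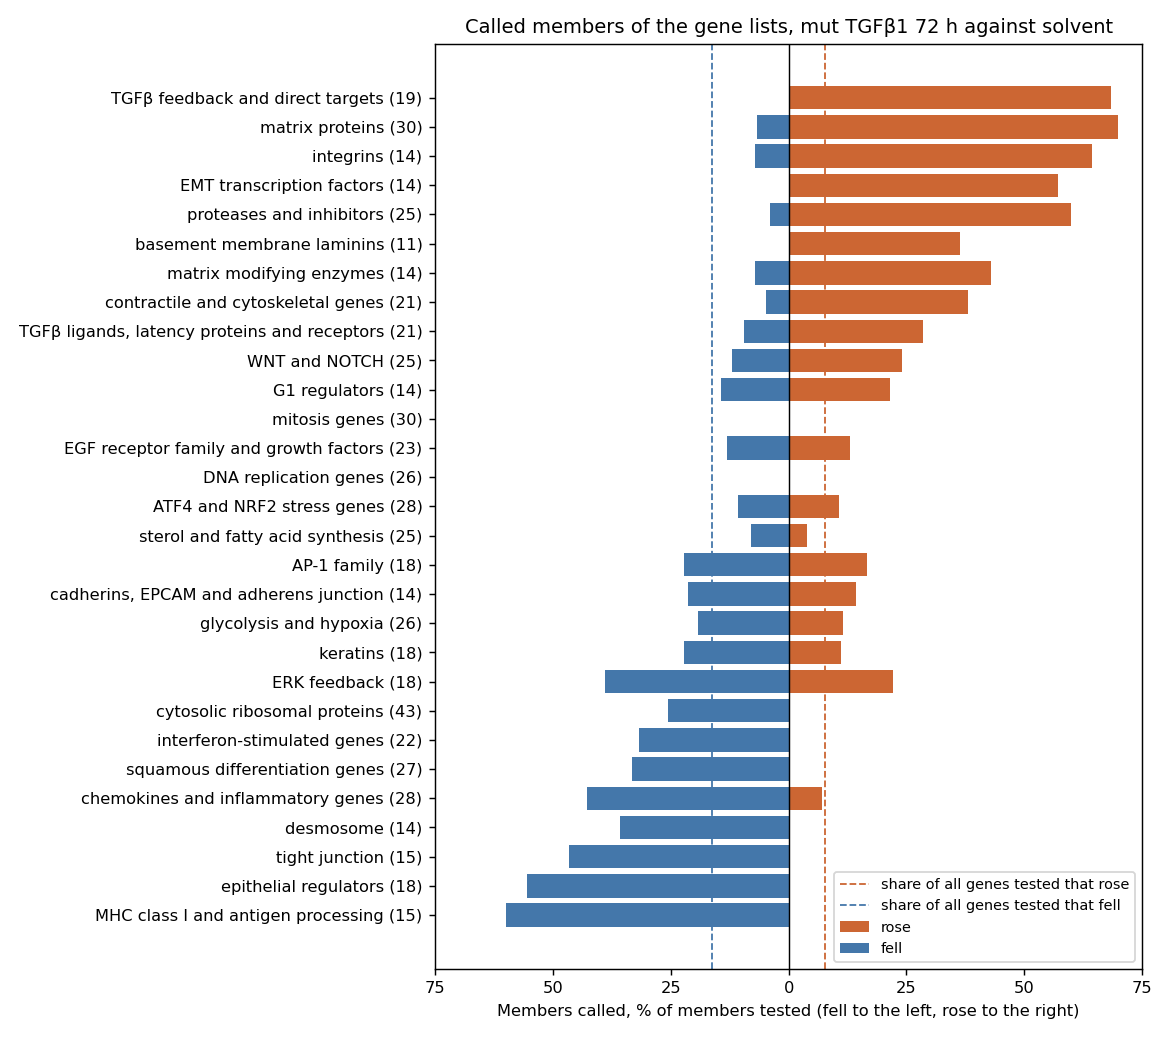
Share of the tested members of each gene list that rose (to the right) or fell (to the left) in mut cells at 72 h, with the number tested in brackets and dashed lines at the shares of all genes tested (7.81% and 16.3%). Members of the TGFβ feedback, matrix, integrin and protease lists mostly rose, those of the MHC class I and epithelial regulator lists mostly fell, and no mitosis or DNA replication gene was called.

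The TGFβ pathway itself was read from its ligands and receptors and from its targets. Of 21 ligand, latency and receptor genes 6 rose (28.6%) and 2 fell (9.52%), against 7.81% and 16.3% of all genes tested (median 0.06). BMPR2, ENG, LTBP1, LTBP2, LTBP3 and TGFB1 rose, and SMAD1 and TGFBR3 fell. TGFB1 stood at 94.4, 89.96, 90.4 and 85.6 CPM in solvent and 139, 138, 136 and 160 CPM after 72 h (0.67 ± 0.10, adjusted p = 8.19e-06). The latent TGFβ binding proteins LTBP1 and LTBP2, which hold the inactive ligand in the matrix, rose 1.72-fold and 3.04-fold (adjusted p = 1.92e-05 and 1.45e-07). TGFBR3, the co-receptor betaglycan, fell from 43.8, 45.4, 39.5 and 38.5 CPM to 15.5, 12.8, 15.3 and 14.1 CPM (-1.54 ± 0.16, adjusted p = 6.32e-08). The signalling receptor TGFBR2 lay between 460 and 522 CPM in solvent and between 391 and 536 CPM after 72 h (-0.06 ± 0.10, adjusted p = 0.721), a change whose sign turned with the scaling.

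Of the 19 tested feedback and direct target genes 13 rose (68.4%, against 7.81% of all genes tested) and none fell, with a median of 0.92. Called or not, 13 of the 19 stood above the solvent libraries without overlap, as did 7.97% of all genes tested. These 13 include CCN1, which was not called. The list's summed level was 1690 to 3560 CPM in solvent, where 1-2 was the highest, and 7080 to 13600 CPM after 72 h. Besides PMEPA1, TGFBI, a matrix protein named for its induction, moved from 740, 1837, 686 and 566 CPM to 4592, 5327, 3293 and 3662 CPM (2.28 ± 0.24, adjusted p = 6.39e-08). SKIL, the SMAD repressor SnoN, moved from 42.3, 56.8, 35.99 and 43.4 CPM to 145, 190, 137 and 132 CPM (1.77 ± 0.17, adjusted p = 2.75e-08). ID1 (log2 change 0.13, adjusted p = 0.514) and CCN1 (0.50, adjusted p = 0.176) did not pass, CCN1 passing with the pairing (adjusted p = 0.00607).

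EMT transcription factors repress epithelial genes or drive the mesenchymal program. Of the 14 tested 8 rose (57.1%, against 7.81% of all genes tested) and none fell (median 0.52). SNAI1 (Snail) was low throughout, at 0.508, 0.674, 0.758 and 0.563 CPM in solvent and 2.84, 4.35, 3.70 and 3.55 CPM after 72 h (2.51 ± 0.37, adjusted p = 1.05e-05). SNAI2 (Slug) moved from 76.6, 102, 72.7 and 98.5 CPM to 201, 304, 203 and 268 CPM (1.47 ± 0.15, adjusted p = 4.76e-08). Both stood clear of the solvent libraries in every treated library. SOX4 rose by 0.85 ± 0.13 (adjusted p = 1.92e-05) and ETS1 by 0.84 ± 0.24 (adjusted p = 0.0109, lost without 72 h 1-2, with adjusted p up to 0.0713), and TWIST2, FOXC2, RUNX1 and TCF4 were called as well. ZEB1, the repressor with zinc finger clusters at both ends, lay at 6.58, 7.88, 6.57 and 7.62 CPM and 11.6, 12.4, 9.52 and 7.09 CPM and did not pass (adjusted p = 0.139, and 0.00653 with the pairing), clone 65 replication 2 being its only series without a higher value. TWIST1 was at -0.17 (adjusted p = 0.272).

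The cadherins moved in opposite directions. CDH1, epithelial E-cadherin, lay at 419, 408, 410 and 424 CPM in solvent and 250, 248, 227 and 248 CPM after 72 h, and CDH2, N-cadherin, at 33.6, 43.6, 39.6 and 36.4 CPM and 88.99, 102, 87.9 and 91.2 CPM. For CDH1 the fall was 0.77 ± 0.25 (adjusted p = 0.0244, lost without solvent 65-2 or 72 h 65-1, with adjusted p up to 0.0525) and for CDH2 the rise 1.28 ± 0.17 (adjusted p = 1.6e-06). The mut libraries of each group lay close to each other for both genes, and the groups did not overlap. The SE draws on all 8 groups, and CDH1 in WT solvent ranged from 224 to 453 CPM. The whole adherens junction list of 14 was near the shares of all genes (7.81% and 16.3%), as 2 rose (CDH2 and CDH13, T-cadherin, 0.65 ± 0.12) and 3 fell (CDH1, EPCAM and NECTIN1). EPCAM, an epithelial adhesion molecule, moved from 82.7, 74.03, 75.7 and 73.02 CPM to 37.4, 34.2, 39.6 and 46.4 CPM (-0.97 ± 0.19, adjusted p = 0.00031), and NECTIN1 changed by -0.24 (adjusted p = 0.046, 0.157 under TMM, lost without solvent 1-1, 65-1 or 65-2 or 72 h 1-1 or 1-2, with adjusted p up to 0.143). CDH3, the P-cadherin of basal cells, was at -0.10 (adjusted p = 0.574).

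Matrix proteins had the highest median change of all lists (1.49). Of 30 tested genes 21 rose (70%) and 2 fell (6.67%), against 7.81% and 16.3% of all genes tested. Their summed level went from 3810 to 5440 CPM in solvent to 11900 to 18800 CPM after 72 h. Beyond POSTN, FBLN5 and FN1, MFAP2, a microfibril component, moved from 0.360, 1.64, 0.0842 and 0.141 CPM to 7.70, 10.6, 3.87 and 7.78 CPM (4.60 ± 1.00, adjusted p = 0.00109, and 5.38 without solvent 1-2). The fibril and basement membrane collagens COL1A1, COL4A1, COL4A2, COL6A1, COL7A1 and COL12A1 were among the risen genes, with COL1A1 at 5.27, 5.30, 5.01 and 3.16 CPM and then 17.4, 16.8, 16.7 and 18.8 CPM (1.93 ± 0.32). ELN, the precursor of elastin, went the other way, from 3.98, 2.81, 11.9 and 9.15 CPM to 1.14, 0.772, 4.30 and 2.79 CPM (-1.82 ± 0.55, adjusted p = 0.0152, lost without solvent 65-1 or 72 h 1-1 or 1-2, with adjusted p up to 0.0808), as did HSPG2, the basement membrane proteoglycan perlecan (-0.68 ± 0.11, adjusted p = 1.87e-05). FBLN1 was among the genes that did not pass (0.13, adjusted p = 0.402). The summed fibroblast markers given above, which share COL1A1 and DCN with the matrix list, were also higher after 72 h.

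LAMA3 and LAMB3, which encode laminin chains of the basement membrane under basal epithelial cells, both rose. LAMA3 stood at 823, 1463, 855 and 1030 CPM in solvent and 2589, 3207, 2271 and 2645 CPM after 72 h (1.39 ± 0.17, adjusted p = 1.05e-06). Solvent 1-2 was again the highest control for LAMA3. LAMB3 rose by 1.10 ± 0.21 (adjusted p = 0.00025). Of 11 laminin genes tested LAMC1 was also called at 0.19 (adjusted p = 0.0471, lost without solvent 1-1, 1-2, 65-1 or 65-2 or 72 h 1-1, 1-2 or 65-1, with adjusted p up to 0.147).

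Enzymes that modify the matrix rose in 6 of 14 cases (42.9%) and fell in 1 (7.14%), against 7.81% and 16.3% of all genes tested. LOXL3, a lysyl oxidase relative, fell (-0.54, adjusted p = 0.0393, 0.0822 under TMM, lost without solvent 1-1, 65-1 or 65-2 or 72 h 1-1 or 1-2, with adjusted p up to 0.265). Besides those described next, PLOD1 and SERPINH1 rose. With the pairing 10 rose (71.4%) and 1 fell (7.14%), against 11% and 22.9% of all genes tested. TGM2, the cross-linking enzyme transglutaminase 2, moved from 52.9, 101, 68.3 and 64.6 CPM to 355, 449, 287 and 371 CPM (2.38 ± 0.22, adjusted p = 1.2e-08). The collagen lysyl hydroxylase PLOD2 and prolyl hydroxylase P4HA2 rose 1.57-fold and 1.56-fold, and P4HA3, with no more than 0.168 CPM in any solvent library, reached 1.46, 1.93, 0.522 and 1.01 CPM.

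Of 25 proteases and inhibitors 15 rose (60%) and 1 fell (4%), against 7.81% and 16.3% of all genes tested, with a median of 0.80. ADAM19, a membrane metalloprotease, stood at 2.03, 58.4, 5.35 and 3.08 CPM in solvent against 50.4, 57.97, 59.6 and 54.1 CPM after 72 h, so that solvent 1-2 alone stood at the treated level. Its change was 3.10 ± 0.62 (adjusted p = 0.000461) and 4.10 without 1-2. MMP13 (collagenase 3) moved from 0.0847, 0.0898, 0.0421 and 0.0805 CPM to 1.21, 1.03, 0.949 and 1.25 CPM, and MMP9 (gelatinase B) from 0.317, 2.52, 0.211 and 0.463 CPM to 3.48, 6.69, 1.71 and 5.07 CPM (adjusted p = 0.000569 and 0.0109). ADAMTS6 was called as well (2.99, adjusted p = 0.0259, lost without solvent 1-1, 65-1 or 65-2 or 72 h 1-2, with adjusted p up to 0.0862), and like MMP9 it overlapped between groups through solvent 1-2. Without that library ADAMTS6 changed by 4.08, and MMP9 by 3.58 in place of 2.87. ADAM8 fell by 1.09 (adjusted p = 0.0159). TIMP1, the abundant metalloprotease inhibitor, was higher in each series and passed only with the pairing (0.59 ± 0.27, adjusted p = 0.108, and 1.92e-06).

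Integrins bind that matrix. Of 14 genes 9 rose (64.3%) and 1 fell (7.14%), against 7.81% and 16.3% of all genes tested. ITGB8 fell (-0.35, adjusted p = 0.0202, 0.0556 under TMM, lost without solvent 1-1 or 65-2 or 72 h 1-2 or 65-2, with adjusted p up to 0.081). ITGB6, whose product with the αv chain activates latent TGFβ, moved from 85.9, 158, 89.7 and 95.4 CPM to 564, 706, 539 and 667 CPM (2.57 ± 0.22, adjusted p = 2.02e-09). ITGA5, the α chain of the fibronectin receptor, moved from 127, 163, 127 and 151 CPM to 291, 365, 263 and 350 CPM (1.16 ± 0.12), and ITGB5 from 205, 211, 200 and 187 CPM to 437, 476, 397 and 483 CPM (1.15 ± 0.09). Both groups of libraries were tight for ITGB5, which had adjusted p = 4.54e-10. ITGB3, the β chain of the vitronectin receptor, reached at most 1.72 CPM (1.85 ± 0.60, adjusted p = 0.0249, lost without solvent 1-1, 65-1 or 65-2 or 72 h 1-1 or 1-2, with adjusted p up to 0.0959). ITGA3, the laminin receptor chain, did not pass (0.16, adjusted p = 0.13), but it was higher in every series and was called with the pairing (adjusted p = 0.0407), with TMM (0.0367), by edgeR's test (0.0406) and by DESeq2 (0.0248).

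Of 21 contractile and cytoskeletal genes 8 rose (38.1%) and 1 fell (4.76%), against 7.81% and 16.3% of all genes tested. CNN3, an actin-binding calponin, fell (-0.41 ± 0.08, adjusted p = 0.000387). TAGLN, the smooth muscle protein transgelin, stood at 121, 131, 174 and 167 CPM in solvent and 317, 373, 234 and 309 CPM after 72 h (1.06 ± 0.31, adjusted p = 0.0126). VIM, the mesenchymal intermediate filament vimentin, was already present in solvent and moved from 794, 852, 896 and 820 CPM to 1268, 1241, 1326 and 1444 CPM (0.65 ± 0.12, adjusted p = 0.000223). ACTN1 and CAPG rose 1.38-fold and 1.36-fold, and FLNA, filamin A, did not pass (0.19, adjusted p = 0.161).

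Among epithelial junction genes calls ran downward. Of 15 tight junction genes 7 fell (46.7%, against 16.3% of all genes tested) and none rose (median -0.60). With the pairing 11 fell (73.3%, against 22.9%). CLDN7 moved from 208, 198, 228 and 238 CPM to 48.7, 48.4, 55.7 and 82.2 CPM (-1.93 ± 0.34, adjusted p = 8.8e-05), with clone 65 replication 2 keeping the most. OCLN, occludin, moved from 26.7, 24.6, 22.1 and 26.02 CPM to 9.16, 7.24, 6.72 and 5.59 CPM (-1.80 ± 0.40, adjusted p = 0.00138). TJP3 was described above, and PARD6B, a polarity adaptor, fell 2.08-fold. F11R, the junctional adhesion molecule A, lay below its solvent libraries in every treated library but the difference was small (-0.17, adjusted p = 0.102, and 0.00588 with the pairing).

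Of 14 desmosome genes 5 fell (35.7%, against 16.3% of all genes tested) and none rose (median -0.31). With the pairing 10 fell (71.4%, against 22.9%). PPL, periplakin, moved from 330, 253, 339 and 306 CPM to 128, 95.6, 123 and 92.7 CPM (-1.49 ± 0.33, adjusted p = 0.00119) and PKP2, plakophilin 2, from 176, 168, 160 and 169 CPM to 78.3, 78.7, 84.8 and 71.4 CPM (-1.11 ± 0.08, adjusted p = 6.94e-10). The desmosomal cadherins DSG3 and DSC3 fell by 1.09 and 0.72 (adjusted p = 0.00705 and 0.00227), and PKP3 by 0.19 (adjusted p = 0.0465, 0.256 under TMM, lost without solvent 1-1, 65-1 or 65-2 or 72 h 1-1, 1-2 or 65-1, with adjusted p up to 0.145). DSP, the desmosomal linker desmoplakin, was lower in every series and passed only with the pairing (-0.38 ± 0.18, adjusted p = 0.124, and 6.01e-05).

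Of 18 epithelial regulators 10 fell (55.6%, against 16.3% of all genes tested) and none rose (median -0.51). Among these were EHF, ESRP2, GRHL1, GRHL3, OVOL2, RBM47, ST14, TFAP2C and TP63. The grainyhead factor GRHL3, which drives epidermal barrier genes, moved from 76.7, 64.2, 64.04 and 59.5 CPM to 20.5, 17.2, 20.3 and 15.3 CPM (-1.85 ± 0.32, adjusted p = 8.51e-05). GRHL1 fell 3.54-fold and the splicing factor RBM47 1.87-fold (adjusted p = 0.0198, lost without 72 h 1-1, with adjusted p up to 0.0507, and 0.0122). KLF5, which supports basal proliferation, lay at -0.14 (adjusted p = 0.432). Under TMM 7 fell (38.9%, against 9.91% of all genes tested) and 1, KLF4, rose.

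Among 18 keratins 2 rose (11.1%) and 4 fell (22.2%), against 7.81% and 16.3% of all genes tested. With the pairing 3 rose (16.7%) and 8 fell (44.4%), against 11% and 22.9%. KRT14 and KRT5, the partners of the basal keratin filament, parted: KRT14 was at 496, 321, 615 and 488 CPM in solvent and 1055, 1103, 1475 and 2189 CPM after 72 h, KRT5 at 8158, 6843, 7814 and 7030 CPM and 5774, 4880, 5894 and 5988 CPM. KRT14 thus rose (1.58 ± 0.32, adjusted p = 0.000568) while KRT5 fell (-0.41 ± 0.10, adjusted p = 0.00269), without overlap for either. KRT7 rose (0.40, adjusted p = 0.0239, lost without solvent 1-2 or 65-2 or 72 h 1-1 or 65-2, with adjusted p up to 0.077). KRT23 fell 9.21-fold and KRT18, which overlaps KRT8, by 0.36 (adjusted p = 0.0331, 0.118 under TMM, lost without solvent 1-1, 65-1 or 65-2 or 72 h 1-2 or 65-2, with adjusted p up to 0.119). KRT17 did not pass (-0.29, adjusted p = 0.413), but it was lower in every series and passed with the pairing (adjusted p = 0.0495).

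The squamous differentiation list had the lowest median of all (-2.62). Of 27 genes 9 fell and none rose, 17 fell by edgeR's quasi-likelihood test, and 21 fell and 1 (IVL, involucrin) rose with the pairing, against 16.3% and 22.9% of all genes. The list's summed level was 1630 to 1950 CPM in solvent and 537 to 848 CPM after 72 h. The kallikrein KLK7, an epidermal protease, moved from 157, 69.9, 153 and 123 CPM to 21.1, 6.10, 11.8 and 8.32 CPM without overlap, yet with a large standard error (-3.50 ± 1.43), and its adjusted p was 0.0749, and 7.05e-10 with the pairing. KLK10 was of the same kind (-3.10 ± 1.22, adjusted p = 0.0646, and 4.5e-08). The alarmin S100A7 had 1.57, 0.988, 1.18 and 1.13 CPM in solvent and 0, 0, 0.0949 and 0.134 CPM after 72 h, and the envelope protein gene SPRR1A 2.01, 0.315, 0.863 and 0.905 CPM and 0.114, 0, 0.0949 and 0.0447 CPM (adjusted p = 0.0288, lost without 72 h 1-1, 1-2, 65-1 or 65-2, with adjusted p up to 0.0811, and 0.013, lost without 72 h 1-2, with adjusted p up to 0.0561).

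**Figure D3:**
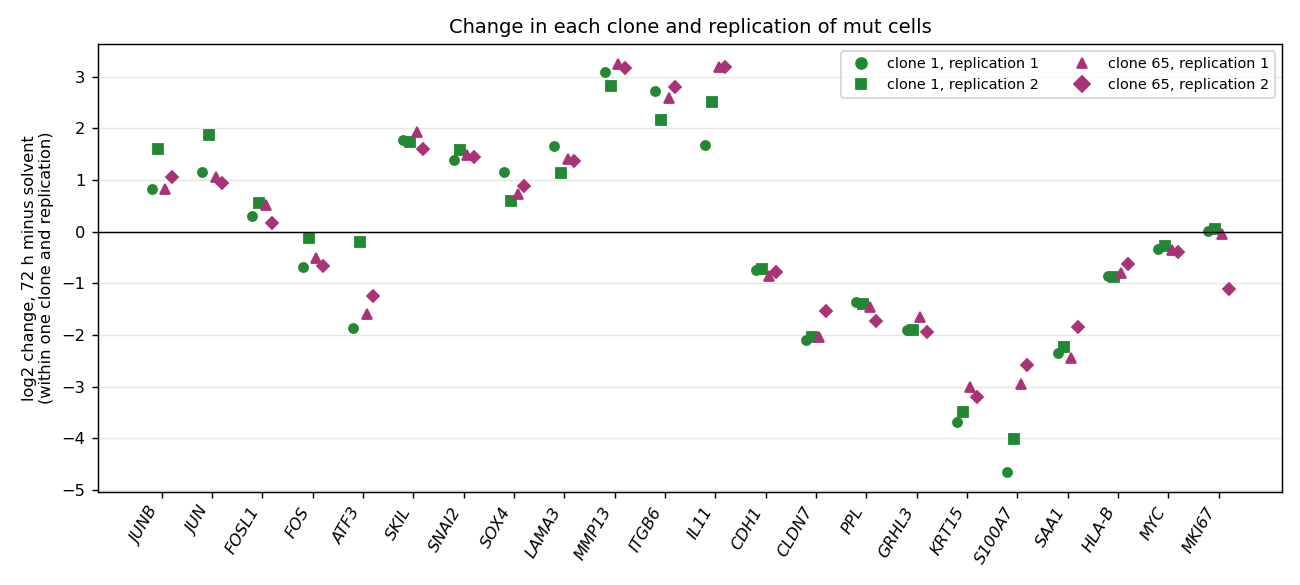
Log2 change from solvent to 72 h of TGFβ1 within each clone and replication for 22 genes, in green for clone 1 and purple for clone 65. All 4 points lie above zero for JUNB, JUN, FOSL1 and the genes from SKIL to IL11 and below zero for FOS, ATF3 and those from CDH1 to MYC, while MKI67 is clearly lower in clone 65 replication 2 only.

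Of 28 chemokine and inflammatory genes 12 fell (42.9%) and 2 rose (7.14%), against 16.3% and 7.81% of all genes tested (median -0.47). SAA1, the acute-phase serum amyloid A, moved from 460, 385, 341 and 386 CPM to 90.3, 82.3, 62.2 and 107 CPM (-2.22 ± 0.35, adjusted p = 2.05e-05), and its close copy SAA2, whose reads may be shared with it, from 21.5, 13.3, 11.3 and 18.2 CPM to 3.31, 2.59, 2.45 and 3.60 CPM. The CXCR2 ligands CXCL1, CXCL2, CXCL3 and CXCL8 all fell, CXCL1 from 20.2, 22.1, 24.2 and 41.1 CPM to 7.64, 10.8, 8.17 and 13.6 CPM (-1.40 ± 0.24, adjusted p = 7.5e-05). IL1RN, the interleukin 1 receptor antagonist, fell 4.37-fold (adjusted p = 0.0217, lost without solvent 1-1 or 72 h 1-2, with adjusted p up to 0.0743). Against this, IL11, a fibrogenic cytokine of the IL6 family, moved from 1.19, 2.11, 0.421 and 0.945 CPM to 3.95, 12.3, 4.39 and 9.16 CPM (2.75 ± 0.62, adjusted p = 0.00164), and CXCL14 rose 3.93-fold from at most 0.547 CPM. IL18 did not pass (0.12, adjusted p = 0.38).

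Of 22 interferon-stimulated genes 7 fell (31.8%, against 16.3% of all genes tested) and none rose. With the pairing 11 fell (50%, against 22.9%). IFIT2, which binds viral RNA, fell 2.85-fold, OAS1 and OAS3, which make the activator of RNase L, 2.19-fold and 1.95-fold, and IFIH1, the RNA sensor MDA5, 1.77-fold (adjusted p = 0.000278, 0.00265, 0.000271 and 0.0026). The MHC class I list fell in 9 of 15 members (60%, against 16.3% of all genes) with none rising, and in 6 under TMM (40%, against 9.91%). HLA-B moved from 127, 119, 135 and 141 CPM to 70.4, 64.6, 77.8 and 90.6 CPM (-0.79 ± 0.14, adjusted p = 0.000119), and reads of the HLA genes may be shared among them. TAP1, the peptide transporter, fell by 0.56 and the immunoproteasome subunits PSMB8 and PSMB10 by 0.50 and 0.51 (adjusted p = 0.000838, 0.0001 and 0.00105).

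Of 23 growth factor and receptor genes 3 rose and 3 fell (13% each), near the 7.81% and 16.3% of all genes tested. FGFR3 fell from 190, 140, 148 and 129 CPM to 43.4, 34.3, 40.6 and 54.6 CPM (-1.82 ± 0.23, adjusted p = 1.5e-06), while FGFR2 rose from 7.43, 10.00, 11.4 and 7.52 CPM to 14.1, 14.02, 14.1 and 13.1 CPM (0.63 ± 0.15, adjusted p = 0.00315). The EGF receptor ligand EPGN and the macrophage factor CSF1 fell 1.84-fold and 1.63-fold, and the secreted growth factors VEGFC and PDGFC rose 3.24-fold and 1.87-fold. EGFR itself ranged over 258 to 301 CPM in solvent and 199 to 370 CPM after 72 h, lowest in clone 65 replication 2 (adjusted p = 0.835).

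Of 18 genes that feed back on ERK 4 rose (DUSP4, DUSP7, DUSP10 and SPRED3, 22.2%) and 7 fell (38.9%), against 7.81% and 16.3% of all genes tested. Under TMM 5 rose (27.8%) and 4 fell (22.2%), against 10.7% and 9.91% of all genes tested. The balance of the list thus turned with the scaling, as did that of all genes. DUSP10, a phosphatase of the stress kinases, moved from 39.3, 40.7, 43.9 and 47.7 CPM to 79.2, 125, 88.8 and 109 CPM (1.21 ± 0.14) and SPRED3 rose 2.11-fold. SPRY2, the Sprouty inhibitor of receptor signalling, moved from 57.1, 53.7, 58.6 and 64.5 CPM to 25.9, 24.2, 29.1 and 26.4 CPM (-1.15 ± 0.10, adjusted p = 2.8e-09), and SPRY1 fell 1.92-fold.

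In the WNT and NOTCH list 6 of 25 rose (24%) and 3 fell (12%), against 7.81% and 16.3% of all genes tested. With the pairing 8 rose (32%) and 6 fell (24%), against 11% and 22.9%. WNT7A moved from 1.06, 3.68, 0.926 and 0.603 CPM to 9.01, 10.6, 6.20 and 9.34 CPM (2.87 ± 0.51, adjusted p = 0.000118). The receptor FZD2 rose 2.51-fold and the WNT inhibitor DKK1 2.75-fold. The 3 that fell were the receptor NOTCH1 (-0.56 ± 0.10, adjusted p = 8.95e-05) and the ligands DLL1 (-2.35, adjusted p = 0.0029) and JAG2 (-0.31, adjusted p = 0.0281, 0.09 under TMM, lost without solvent 1-1 or 1-2 or 72 h 1-2 or 65-2, with adjusted p up to 0.123).

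None of 30 mitosis genes and none of 26 DNA replication genes passed by limma-voom, edgeR's test also calling none in either list, and 1 and 2 genes had an unadjusted p under 0.05. With the pairing 1 mitosis gene (TOP2A, 3.33%) and 4 replication genes (15.4%), CDC45, RFC4 and POLA1 among them, fell, against 22.9% of all genes tested. Clone 65 replication 2 was the lowest of the 4 treated libraries for 28 of the 30 mitosis genes and for 24 of the 26 replication genes. It was the lowest for 31.2% of all genes tested. The summed level of the mitosis genes was 2310 CPM there against 3130 to 3400 CPM in the other treated libraries and 3210 to 3330 CPM in solvent. MKI67, the proliferation antigen Ki-67, stood at 233, 210, 217 and 103 CPM after 72 h and 231, 202, 225 and 222 CPM in solvent (adjusted p = 0.305), and TOP2A, topoisomerase IIα, at 361, 338, 361 and 229 CPM and 372, 381, 399 and 373 CPM (adjusted p = 0.118). MKI67 changed by 0.01, 0.06, -0.05 and -1.10 and TOP2A by -0.04, -0.17, -0.15 and -0.70 over the 4 series on the log2 scale.

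Of 14 regulators of G1 phase 3 rose (21.4%, against 7.81% of all genes tested) and 2 fell (14.3%, near the 16.3% of all genes tested). With the pairing 3 rose (21.4%) and 5 fell (35.7%), against 11% and 22.9% of all genes. CDKN1A, the cyclin-dependent kinase inhibitor p21, moved from 263, 294, 273 and 314 CPM to 360, 414, 337 and 406 CPM (0.41 ± 0.07, adjusted p = 0.000189). MYC moved from 600, 544, 654 and 677 CPM to 477, 447, 510 and 513 CPM (-0.34 ± 0.08, adjusted p = 0.00283). Both were modest shifts without overlap. CDK6 and CCND1, the D-type cyclin machinery, rose by 0.34 and 0.29, while CCND3 fell by 0.31 (adjusted p = 0.0164, 0.0189 and 0.000789). The call on CDK6 was lost without solvent 1-1 or 65-1 or 72 h 1-1 or 1-2, with adjusted p up to 0.0717, and that on CCND1 lost without solvent 65-2 or 72 h 1-1, with adjusted p up to 0.104.

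In glycolysis and hypoxia 3 of 26 genes rose (11.5%) and 5 fell (19.2%), near the 7.81% and 16.3% of all genes tested. HK2, hexokinase 2, fell 1.87-fold and PFKFB4, which makes the activator of phosphofructokinase, rose 2.19-fold, without overlap (adjusted p = 3.55e-06 and 1.81e-06). PFKP and PFKFB3 also rose, GAPDH, GPI, PDK1 and PFKL also fell, and LDHA did not pass (-0.11, adjusted p = 0.323). Of 25 sterol and fatty acid synthesis genes 1 rose (4%) and 2 fell (8%), below the 7.81% and 16.3% of all genes tested. FADS1, a desaturase, rose (0.55, adjusted p = 0.0237, lost without solvent 1-1 or 65-2 or 72 h 1-1 or 1-2, with adjusted p up to 0.0669). TM7SF2 and SREBF2 fell (-0.65 and -0.25, adjusted p = 0.00842 and 0.00351). With the pairing 6 rose (24%) and 3 fell (12%), against 11% and 22.9% of all genes tested. Here too clone 65 replication 2 was the lowest treated library, for 20 of the 25 genes, against 31.2% of all genes tested.

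In the ATF4 and NRF2 stress list 3 of 28 rose and 3 fell (10.7% each, against 7.81% and 16.3% of all genes tested). With the pairing 4 rose (14.3%) and 9 fell (32.1%), against 11% and 22.9%. The 3 that rose are neighbouring aldo-keto reductases with similar sequences, so that their reads may be shared: AKR1C2 moved from 150, 145, 134 and 112 CPM to 439, 442, 377 and 493 CPM (1.70 ± 0.22, adjusted p = 1.26e-06), AKR1C3 rose 1.79-fold and AKR1C1 1.72-fold (adjusted p = 0.023, lost without solvent 65-2 or 72 h 65-2, with adjusted p up to 0.0734). Another family member, AKR1B10, fell 3.96-fold (adjusted p = 2.77e-06). DDIT4 and GCLC fell by 0.44 and 0.33, and both lost the call under TMM (adjusted p = 0.0501 and 0.062). The call on DDIT4 was also lost without solvent 65-2 or 72 h 1-1 or 65-1, with adjusted p up to 0.0699, and that on GCLC lost without solvent 1-2, with adjusted p up to 0.0571.

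Of 43 cytosolic ribosomal protein genes 11 fell by library-size scaling (25.6%, against 16.3% of all genes tested), 28 fell with the pairing (65.1%, against 22.9%) and 1 fell under TMM (2.33%, against 9.91%), with medians of -0.24 and -0.16 for the first and the last. RPL19 moved from 297, 285, 297 and 286 CPM to 212, 202, 208 and 216 CPM (-0.48 ± 0.13, adjusted p = 0.0102, 0.0385 under TMM). The other called members fell by 0.19 to 0.30. Clone 65 replication 2 was the highest treated library for 32 of the 43 genes, against 34.4% of all genes tested.

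The response at 72 h was next set against that at 24 h in the same clones. There 103 genes (0.693%) were higher at 72 h and 92 (0.619%) lower. The pairing raised this to 693 (4.66%) and 711 (4.78%), and leaving out a library moved the total of 195 (196 by edgeR's test) to 34 without 72 h 1-1, 111 without 72 h 1-2, 78 without 72 h 65-1, 347 without 72 h 65-2, 68 without 24 h 1-1, 46 without 24 h 1-2 and 63 without 24 h 65-2. POSTN had the largest increase among the named genes: its mean was 22.96 ± 43.01 CPM in solvent (SD, n = 4 here and below), 4.23 ± 3.38 CPM at 6 h, 77.1 ± 49.7 CPM at 24 h and 422 ± 92.7 CPM at 72 h, and 72 h exceeded 24 h by 2.76 ± 0.61 on the log2 scale (adjusted p = 0.0213). KCNJ15 went from 14.1 ± 4.88 to 39.99 ± 5.65 CPM (1.60 ± 0.33, adjusted p = 0.0151), FAM167A from 13.3 ± 4.67 to 33.3 ± 12.2 CPM (1.34 ± 0.24, adjusted p = 0.00676) and CA8, a carbonic anhydrase relative, from 4.08 ± 1.24 to 13.5 ± 1.99 CPM (1.76 ± 0.29, adjusted p = 0.00407).

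Downward, BCAM went from 50.02 ± 13.9 CPM at 24 h to 17.1 ± 5.79 CPM (-1.60 ± 0.18, adjusted p = 1.42e-05). The inositol hexakisphosphate kinase IP6K3 changed by -1.40 ± 0.29, the synaptotagmin SYT12 by -1.29 ± 0.23 and FGFR3 by -1.23 ± 0.24 (adjusted p = 0.0158, 0.00626 and 0.00911). SYT12 had not been below its solvent level at 24 h (57.1 ± 8.19 CPM in solvent, 61.6 ± 6.89 CPM at 24 h, 25.7 ± 5.02 CPM at 72 h). PMEPA1 and SNAI2 were called in neither fit (adjusted p = 0.963 and 0.599), PMEPA1 having 710 ± 101 CPM at 24 h and 695 ± 126 CPM at 72 h. With the pairing 22 of the 30 mitosis genes were higher at 72 h than at 24 h, 18 of the 27 squamous genes lower and 8 of the 15 tight junction genes lower, against 1 (CENPA), 0 and 0 without it. Of all genes tested 4.66% were higher and 4.78% lower with the pairing.

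**Figure D4:**
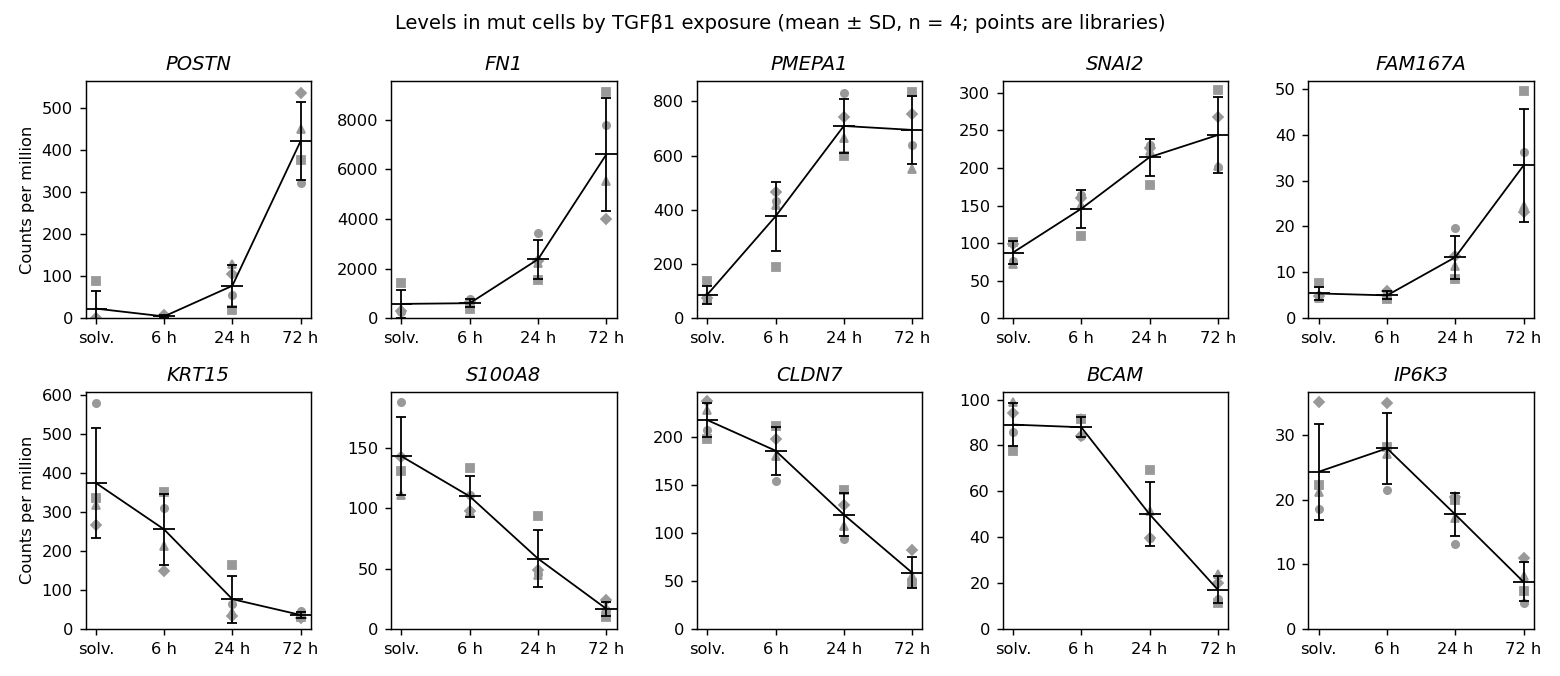
Counts-per-million in mut cells in solvent and after 6, 24 and 72 h of TGFβ1 for 10 genes, as mean ± SD (n = 4) with a grey point for each library. POSTN, FN1 and FAM167A climb between 24 and 72 h, PMEPA1 and SNAI2 reach similar levels at both times, and the 5 genes of the lower row decline to their lowest mean at 72 h.

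Finally, the change at 72 h in mut cells was compared with that in WT cells by the interaction of genotype and treatment. The change was more positive in mut cells in 1397 genes (9.4%) and more negative in 434 (2.92%). Under TMM the counts were 674 (4.53%) and 617 (4.15%), so this split too depends on the scaling. Among WT solvent libraries, clone 27 replication 2 (27-2) stood apart for some genes named above, on the side of the treated libraries. POSTN was at 19.5 CPM there and FN1 at 1548 CPM, against at most 0.587 and 580 CPM in the others. EHF was at 8.15 CPM and KRT15 at 188 CPM, against at least 39.4 and 542 CPM. For other genes, such as CDKN1A, 27-2 lay within the range of the rest. The interaction was not tested without this library. Since "more positive" covers both a stronger rise and a weaker fall, the levels of both genotypes are needed. ALDH3A1, an aldehyde dehydrogenase of squamous epithelia, stood at 267, 260, 285 and 291 CPM in mut solvent and 94.5, 96.3, 112 and 133 CPM at 72 h, against 174, 84.9, 256 and 411 and 6.92, 8.62, 9.91 and 9.28 CPM in WT cells (clone 27 replications 1 and 2, then clone 2). It was lower after treatment in both, and its change was 3.17 ± 0.64 more positive in mut cells on the log2 scale (adjusted p = 0.00174). The same held for CAMK2B, a calcium/calmodulin kinase subunit, which went from 241 ± 42.4 to 79.8 ± 37.9 CPM in mut and from 137 ± 56.4 to 6.87 ± 2.68 CPM in WT cells (2.55 ± 0.52, adjusted p = 0.00197), and for RIPOR2 (2.74 ± 0.77, adjusted p = 0.0182). FGFBP1, which releases FGF from the matrix, was at 124 ± 51.3 and 94.8 ± 31.9 CPM in mut and at 190 ± 38.7 and 23.1 ± 4.73 CPM in WT cells (2.69 ± 0.42, adjusted p = 0.000155).

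Among genes with a more negative change in mut cells, NEDD9, a scaffold of focal adhesions, was at 15.8, 21.4, 35 and 39.6 CPM in mut solvent and 30.5, 40.7, 44.8 and 43.9 CPM at 72 h, while WT cells went from 3.44, 4.77, 1.98 and 1.94 to 31.3, 39.4, 35.6 and 44.1 CPM (-3.14 ± 0.52, adjusted p = 0.000298). Both genotypes thus ended at like levels from unlike starts. TGM2 was higher after treatment in both, at 767 ± 186 CPM in WT cells from 29.2 ± 11 CPM (-2.39 ± 0.34, adjusted p = 6.29e-05), and so were TGFBI (-1.29 ± 0.34, adjusted p = 0.012), SOX4 (-0.93 ± 0.18, adjusted p = 0.00131), ITGB3 (-4.48 ± 1.12, adjusted p = 0.0088) and LAMA3 (-0.87 ± 0.25, adjusted p = 0.0205, 0.0548 without solvent 1-2). ITGB3 had few counts in WT solvent, at 0.231, 0.100, 0.0901 and 0 CPM, against 8.8, 6.9, 5.3 and 5.0 CPM in WT cells at 72 h. CXCL1 fell in mut cells and stood at 18.3 ± 5.03 and 40.4 ± 6.44 CPM in WT cells (-2.56 ± 0.32, adjusted p = 1.26e-05). For CHI3L1 (-2.85 ± 0.86, adjusted p = 0.0278) WT cells held 1.92 ± 1.06 and 2.46 ± 2.89 CPM, and mut cells 14.7 ± 3.12 and 1.92 ± 0.151 CPM. CNN3 differed by -0.80 ± 0.11 and HLA-B by -0.75 ± 0.20 (adjusted p = 7.83e-05 and 0.0119). IL32 was called below WT (-2.56 ± 0.73, adjusted p = 0.0201) but not without solvent 1-2 (adjusted p = 0.0673), with 4.10 ± 2.17 and 4.98 ± 1.97 CPM in mut and 6.09 ± 2.45 and 48.3 ± 28.1 CPM in WT cells.

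By list, and beside 9.4% of all genes more positive and 2.92% more negative (4.53% and 4.15% under TMM), 10 of 28 chemokine and inflammatory genes were more negative in mut cells and none more positive. The contractile and protease lists had 5 more negative members each (23.8% and 20%) and 1 more positive. Of 14 matrix modifying enzymes 4 were more negative (28.6%), or 5 under TMM (35.7%), and none more positive. The MHC class I list had 3 of 15 more negative (20%), or 6 under TMM (40%), and none more positive. In the adherens junction list 3 of 14 were more negative (21.4%) and 1 more positive. In the ATF4 and NRF2 stress list 7 of 28 were more positive and 1 more negative (4 and 1 under TMM), among them AKR1C2 (1.23 ± 0.32, adjusted p = 0.0116) and DDIT4 (1.11 ± 0.19, adjusted p = 0.000383). FGFR2 (1.24 ± 0.22), SPRY1 (2.04 ± 0.36) and MYC (0.67 ± 0.12) were more positive as well (adjusted p = 0.000562, 0.000533 and 0.000517). Ribosomal protein genes gave 10 more positive of 43 (23.3%), and 3 under TMM (6.98%). Glycolysis genes gave 4 of 26 (15.4%), and none under TMM.

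**Figure D5:**
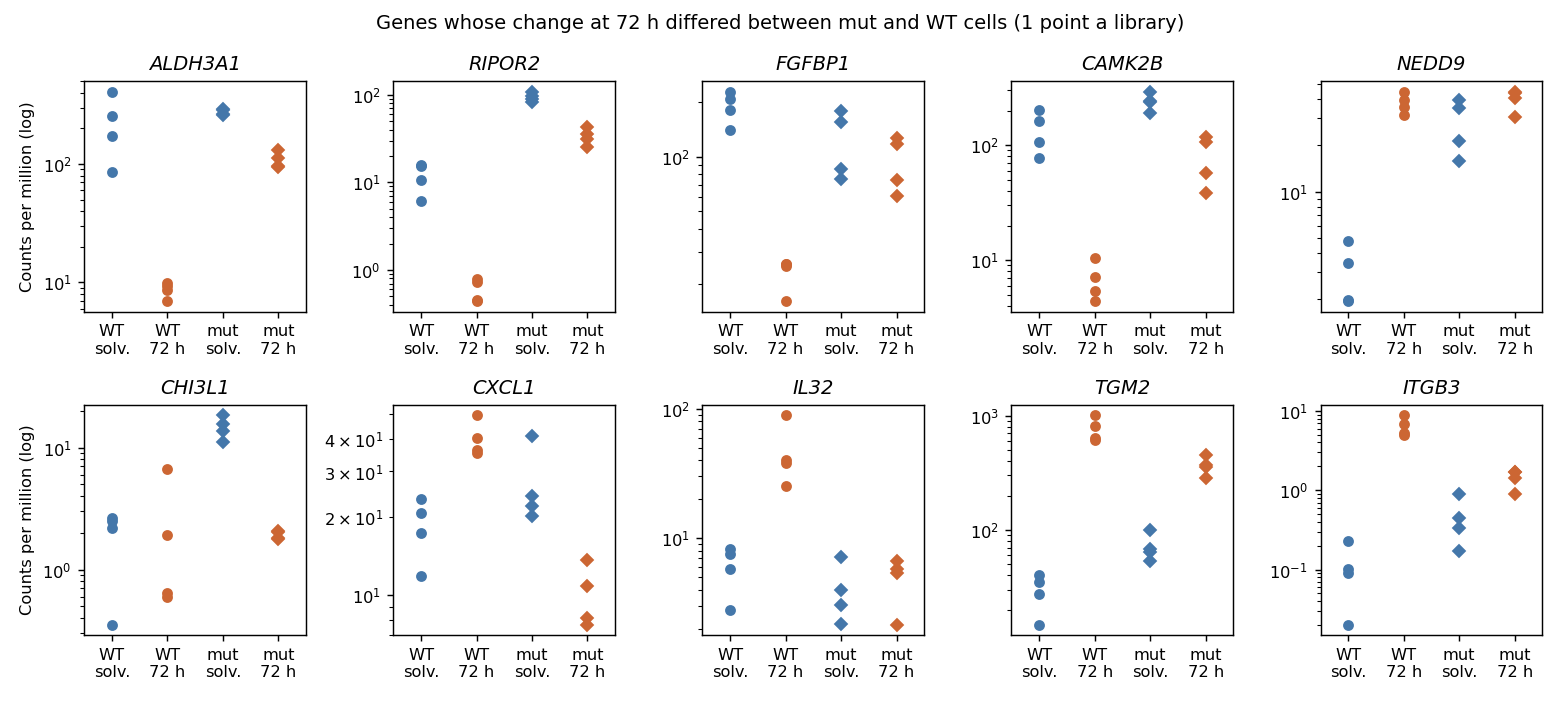
Counts-per-million on a log scale of 10 genes in WT (circles) and mut (diamonds) cells, in solvent (blue) and after 72 h of TGFβ1 (orange), with a point for each of the 4 libraries of a group (the WT solvent library without an ITGB3 count is drawn at 0.02). ALDH3A1, RIPOR2 and CAMK2B go further down in WT than in mut cells, NEDD9, TGM2, IL32 and ITGB3 go further up in WT cells, and CXCL1 moves in opposite directions.

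The 2 clones were compared by the difference of their changes, 2 replications a side. None of 15206 genes differed between clone 65 and clone 1 at an adjusted p of 0.05 by limma-voom (lowest adjusted p = 0.941) or by edgeR, while 695 had an unadjusted p under 0.05, and 576 by edgeR. With 2 libraries a clone and condition this comparison is a weak one. For POSTN the difference was 2.18 ± 2.94, for FN1 0.06 ± 0.94 and for BCAM 0.59 ± 0.29 on the log2 scale (clone 65 minus clone 1). For POSTN the 4 series gave 9.25, 2.11, 7.45 and 8.51, the low value being that of the solvent library 1-2. For EHF they gave -3.95, -4.19, -3.42 and -3.43 and for SNAI2 1.39, 1.58, 1.48 and 1.44. Over all genes tested the log2 changes of the clones had Pearson's r = 0.747 and Spearman's rho = 0.606, a description across genes, which are not independent replicates.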

How the data were processed

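RNA of 32 MCF10A libraries was prepared by the authors with the TruSeq RNA kit v2, which keeps no strand, sequenced in pairs, trimmed with Trimmomatic and aligned with STAR to GRCh38. The deposited values are STAR's raw counts per gene. Tool versions and the counting strand are not given in the sources used here.

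All 32 libraries (8 groups of 4) entered 1 limma-voom fit (limma 3.58.1, R 4.3.3) with library-size scaling after edgeR's filterByExpr (edgeR 4.0.16, minimum count 10, minimum total 15), which tested 14865 of 17788 genes. A call is a two-sided Benjamini-Hochberg adjusted p under 0.05 over all genes tested. CPM were computed from the deposited counts, and log2 changes are given with their SE. The pairing is a fit with clone and replication, taken from the labels, as a block. Libraries of the same clone and replication deviated together (r = 0.27, 0.311, 0.318 and 0.24). The alternatives were TMM scaling, edgeR's quasi-likelihood test, DESeq2 1.42.0, other filters and sample sets, and leaving out each library. The fits were tested on simulated counts. No libraries compared agreed within sampling noise, and floors of 3 counts cover counting error only. GENCODE 44 named 17763 genes, and 42 of the 173 genes tabulated for the text overlap another gene.

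The comparison, the 35 lists (671 genes, 625 tested) and the tests were chosen with earlier results of these data known. Named genes are JUNB, the 10 with the largest change in each direction without overlap and with at least 10 CPM, up to 4 called and 3 uncalled members of each list, and the 4 largest in each direction at 72 h against 24 h and against WT, and a few genes that this rule names are not reported here. Other list members that complete a count, the genes near JUNB, IL11's promoter, PMEPA1 and SNAI2 in the comparison with 24 h, and TGM2, TGFBI, ITGB3, CNN3, SOX4, LAMA3, HLA-B, AKR1C2, DDIT4, FGFR2, SPRY1 and MYC in the comparison with WT were chosen after their values were seen.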

Additional observations from a re-analysis of the deposited data

Results flagged for a closer look

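Within each group of 4 libraries the distance of the most extreme library to its neighbour was divided by the range of the group. It passed Dixon's 95% critical value for 4 samples in 30 of 416 groups examined, where chance alone passes about 1 in 20. The mut solvent library 1-2 was far above the other solvent libraries for POSTN (0.977), LBH (0.975), ADAMTS6 (0.975), KCNJ15 (0.955), ADAM19 (0.941), SCG5 (0.938), SOX4 (0.923), KANK4 (0.918), PMEPA1 (0.896), FN1 (0.893), MMP9 (0.891), ITGB6 (0.869), TGFBI (0.863), ALOX5AP (0.854), WNT7A (0.852) and FAM167A (0.848), and for the summed TGFβ feedback and target genes (0.963). Solvent 1-1 stood apart for EHF (0.871) and the summed endothelial markers (0.833), and solvent 65-2 for the summed ERK feedback genes (0.873).

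Among the 72 h libraries 65-2 stood apart for FBLN1 (0.971), FGFR2 (0.911), FUT3 (0.904), TGFB1 (0.887), CAPG (0.875), JUND (0.849) and RPS6 (0.83). Library 65-1 did so for CDH1 (0.898), and 1-2 for ETS1 (0.831) and the summed EMT transcription factors (0.84).

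The change at 72 h differed between mut and WT cells by limma-voom's interaction test. On the log2 scale, mut minus WT, it was more positive for ALDH3A1 (3.17), RIPOR2 (2.74), FGFBP1 (2.69), CAMK2B (2.55), SPRY1 (2.04), FGFR2 (1.24), AKR1C2 (1.23), DDIT4 (1.11) and MYC (0.67). It was more negative for ITGB3 (-4.48), NEDD9 (-3.14), CHI3L1 (-2.85), CXCL1 (-2.56), IL32 (-2.56), TGM2 (-2.39), TGFBI (-1.29), SOX4 (-0.93), LAMA3 (-0.87), CNN3 (-0.80) and HLA-B (-0.75).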

How the results depend on the processing

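The total of 3584 calls stayed between 2408 and 5036 under each other test, scaling, filter, sample set and left-out library run, and was 795 with a log2 change of at least 1. Risen genes went from 1161 to 1743 with DESeq2, 2288 with the pairing and TMM, and 343 at the fold limit. Fallen genes went from 2423 to 1473 with TMM, 1331 with edgeR's test, 1456 with DESeq2, 1553 with the replications of a clone summed, and 452 at the fold limit. The 195 genes of 72 h against 24 h became 34 at the fold limit and 34 to 347 with a library left out, and the 1831 of the interaction 229 at the fold limit.

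With clone and replication as replicate block the calls became 5036 at 72 h, 1404 against 24 h and 3488 in the interaction. The block raised the calls in matrix enzymes (11), tight junction (11), desmosome (10), keratins (11), squamous genes (22), interferon-stimulated genes (11), WNT and NOTCH (14), G1 regulators (8), DNA replication (4), mitosis (1), sterol synthesis (9), stress genes (13), ribosomal proteins (28) and immune markers (2), and of the 141 called named genes none was lost while 15 others gained a call. It changed no other list by over 1.5 times.

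Squamous calls were 17 with edgeR's test, ribosomal calls 1 with TMM and 1 with edgeR's test, luminal marker calls 2 with TMM, immune marker calls 2 with TMM and with edgeR's test, and endothelial calls 0 with TMM, with edgeR's test and without solvent 1-2. JUNB ranged from 0.84 to 1.36 with a library left out. No called named gene changed sign. Of genes not called, TGFBR2 turned positive with TMM (0.0203), edgeR's test (0.0320) and DESeq2 (0.0349), and with a library left out it ranged from -0.120 to 0.0306, EGFR from -0.0761 to 0.223 and MKI67 from -0.390 to 4.33e-05 (turning without 72 h 65-2, 72 h 1-1 or 1-2, and 72 h 65-2). Calls were lost in 13 of the 141 genes with TMM, in 5 without solvent 1-2 and in 29 in at least 1 fit with a library left out. The cause was not tested.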

Other observations

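The genes beside JUNB on chromosome 19 differed between the 2 mut clones whatever the treatment, a pattern seen after the values were examined. PRDX2, a peroxidase whose gene lies 3.5 kb from JUNB, averaged 77.2 CPM over the 8 libraries of clone 1 (66.1 to 86.9 CPM) and 145 CPM over the 8 of clone 65 (114 to 170 CPM), against 141 and 144 CPM in WT clones 27 and 2 (114 to 172 CPM). RNASEH2A, which encodes the catalytic subunit of ribonuclease H2 and lies 13.3 kb away, averaged 17.8 CPM (12 to 20.8) and 31.2 CPM (23.2 to 37.7), against 29.9 and 25.8 CPM in WT (11.6 to 39.3). The pattern was another for HOOK2, which spans JUNB, and for JUNB itself, where clone 1 was the nearer to WT. HOOK2 averaged 16.6 and 27.3 CPM, against 18.4 and 20.3 CPM in WT, and JUNB 168 and 339 CPM, against 184 and 201 CPM. MAST1, at 40.6 kb, was higher in clone 1 (1.01 against 0.522 CPM, with 0.738 and 0.766 CPM in WT). BEST2, at 33 kb, was above WT on average in both mut clones. It averaged 4.85 CPM (1.25 to 7.58) in clone 1 and 3.97 CPM (1.97 to 6.68) in clone 65, against 0.447 and 0.865 CPM in WT (0.132 to 1.76). Farther out the clones were closer: GET3, at 43.2 kb before it, averaged 59.4 and 66.2 CPM, and DNASE2, at 81.9 kb after it, 53.2 and 64.5 CPM. Over all 14865 genes the median ratio of clone 65 to clone 1 was 0.999, and in 78 genes (0.525%) every clone 65 library exceeded every clone 1 library. Each clone grew from a single cell, so that the edit and any other property of a clone cannot be told apart.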
